A study of Arabidopsis thaliana with 8 samples.

Results

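On the array, 692 rows name exactly 1 gene. Among the genes of these rows, 7 were listed as pentatricopeptide repeat (PPR) genes of the PLS class, the class whose proteins act mainly in RNA editing. They are CRR21 (AT5G55740), AT1G31790, AT3G51320, AT3G26630, AT2G46050, AT3G49740 and AT3G22150. Each was taken from the single row whose platform annotation names that gene and no other, out of 3439 rows in all. The samples were total RNA of wild-type Arabidopsis thaliana, ecotype Columbia-0, from plants 4 weeks old (4 samples) and plants 1 week old (4 samples), each hybridised to an array with a signal in arbitrary units. No organ is named in the labels, and they do not say that samples came from different plants. Any p-value therefore rests on the sample-to-sample spread alone, some or all of it possibly technical, and precision is limited by the few arrays. The genes were chosen by class, with their signals at 4 weeks and 1 week in these same samples in view. Their age differences are therefore given as a description, without a test.

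PPR proteins are built from tandem helical repeats that bind RNA in organelles, with the residues of successive repeats reading successive bases. In the PLS class, repeats of the classical length alternate with longer and shorter variants, and many members carry a C-terminal E or DYW domain. Such proteins pick out single cytidines in plastid or mitochondrial transcripts for conversion to uridine, a change that often restores a conserved codon. The genes lie in the nucleus, and the loss of a member commonly impairs editing at a small number of sites. In background knowledge, CRR21 is needed for editing of the plastid transcript ndhD, which encodes a subunit of the chloroplast NADH dehydrogenase-like (NDH) complex. AT3G22150 is known as AEF1 and acts on the plastid transcript atpF, for a subunit of the ATP synthase, and on mitochondrial nad5. No editing site is assigned here to the other 5 genes, and editing itself was not measured.

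The 7 genes did not share a direction. CRR21, AT3G51320 and AT3G26630 were lower at 4 weeks than at 1 week, AT1G31790 and AT3G49740 were higher, and in AT2G46050 and AT3G22150 the samples of the ages overlapped. In 5 of the 7 genes the deposited signals of the ages did not overlap, against 46.7% of all 2924 rows that could be compared. By direction, 2 genes were higher at 4 weeks without overlap, against 27.5% of rows, and 3 were lower, against 19.2% of rows. Since the genes were listed with this comparison known, nothing is read from these counts. On quantile-normalized values 4 of the 7 did not overlap, against 45.1% of all rows, since the ages overlapped in AT3G49740 on that scale. All 7 genes had a signal above 0 in all 8 samples, so none of their values was missing. In the shares of all rows, signals of 0 were left out, and 2814 of the 2924 rows were measured in all 8 samples.

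**Figure D1:**
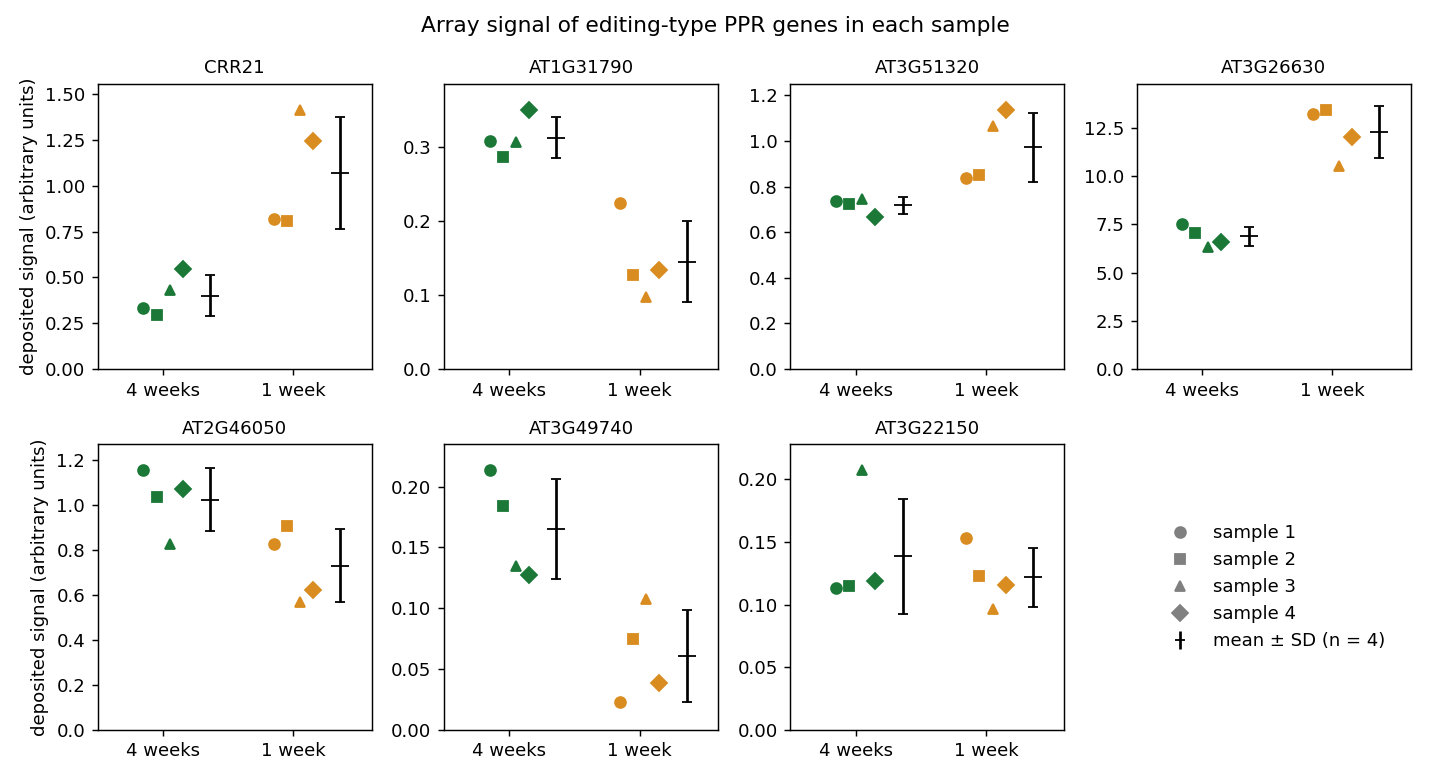
Deposited array signal (arbitrary units, linear axes from 0, a scale of its own for each gene) of the 7 genes in each sample at 4 weeks and 1 week. Symbols mark sample numbers and black bars the mean ± SD of 4 samples. In CRR21, AT3G51320 and AT3G26630 every sample at 4 weeks lies below every sample at 1 week, and in AT1G31790 and AT3G49740 every sample at 4 weeks lies above.

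CRR21, the ndhD editing factor, had signals of 0.330, 0.292, 0.430 and 0.543 in samples 1 to 4 of 4-week-old plants, against 0.818, 0.807, 1.42 and 1.24 in samples 1 to 4 of 1-week-old plants. The highest sample of 4-week-old plants lay below the lowest of 1-week-old plants, and in both ages samples 3 and 4 were brighter than samples 1 and 2. The means were 0.399 ± 0.113 at 4 weeks and 1.07 ± 0.307 at 1 week (SD, n = 4 each). On the normalized log2 scale the difference between 4 weeks and 1 week was −1.43 (SE 0.23), a 2.70-fold lower signal in the older plants. Of all tested rows, 7.56% had a more negative difference. Because each sample is total RNA of many cells, fewer cells that use a gene and less of its RNA per cell cannot be told apart, here or in the genes below.

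AT3G22150, the atpF and nad5 editing factor, had signals of 0.113, 0.115, 0.207 and 0.119 at 4 weeks, against 0.153, 0.123, 0.0960 and 0.115 at 1 week. Sample 3 of 4-week-old plants was the highest of all 8, and the other 7 samples were interleaved between the ages. The means were 0.139 ± 0.0458 at 4 weeks and 0.122 ± 0.0236 at 1 week (SD, n = 4 each), a difference smaller than either SD. Its log2 difference had no settled sign, with −0.12 (SE 0.23) on normalized values and 0.16 (SE 0.23) on the deposited ones. It was −0.34 (SE 0.15) without sample 3 of 4-week-old plants. The known editing factors CRR21 and AT3G22150 thus had age differences of −1.43 and −0.12, and the gap between these was not tested.

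Among the genes without a site assigned here, AT3G26630 had signals of 7.50, 7.06, 6.35 and 6.60 at 4 weeks, against 13.2, 13.5, 10.5 and 12.0 at 1 week. The ages were widely separated on the deposited scale, and in each age samples 1 and 2 were above samples 3 and 4. The means were 6.88 ± 0.508 at 4 weeks and 12.3 ± 1.34 at 1 week (SD, n = 4 each), so the deposited signal was 1.79-fold lower in the older plants. The size of this difference depended on the scaling. The log2 difference was −0.84 (SE 0.12) on deposited values and −0.89 (SE 0.13) after median centring, but −0.34 (SE 0.12), or 1.26-fold lower, after quantile normalization. The samples of the ages remained apart on the quantile-normalized scale.

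AT3G51320 had signals of 0.736, 0.722, 0.746 and 0.666 at 4 weeks, against 0.837, 0.853, 1.06 and 1.14 at 1 week. The older plants gave the more even values, with a coefficient of variation of 5.01% at 4 weeks and 15.5% at 1 week, where samples 3 and 4 were above samples 1 and 2. The means were 0.717 ± 0.0359 at 4 weeks and 0.973 ± 0.151 at 1 week (SD, n = 4 each). The log2 difference was −0.43 (SE 0.12), a 1.34-fold lower signal at 4 weeks, and it was −0.43 on deposited values too. The size rested in part on the sample numbers, with −0.24 in samples 1 and 2 and −0.62 in samples 3 and 4.

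AT1G31790 ran the other way. Its signals were 0.308, 0.286, 0.307 and 0.351 at 4 weeks, against 0.225, 0.127, 0.0967 and 0.133 at 1 week. The 4 samples of older plants were close together, and the nearest sample of younger plants was sample 1. The means were 0.313 ± 0.0272 at 4 weeks and 0.145 ± 0.0552 at 1 week (SD, n = 4 each). The log2 difference was 1.00 (SE 0.21), a 2.00-fold higher signal in the older plants. Without sample 1 of 1-week-old plants it was 1.19 (SE 0.14).

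AT3G49740 had signals of 0.213, 0.184, 0.135 and 0.127 at 4 weeks, against 0.0224, 0.0744, 0.108 and 0.0380 at 1 week. Sample 3 of 1-week-old plants came closest to the older plants. The means were 0.165 ± 0.0410 at 4 weeks and 0.0606 ± 0.0382 at 1 week (SD, n = 4 each), with a coefficient of variation of 63.0% at 1 week. Its log2 difference of 1.44 was the most positive of the 7 genes and had the largest SE, 0.54. Without sample 1 of 1-week-old plants the difference was 0.93 (SE 0.36), and in samples 3 and 4 it was 0.54, against 2.34 in samples 1 and 2. With a pseudocount of 0.0777 added to every signal, a setting that draws the log2 differences of dim rows toward 0, it was 0.58 (SE 0.25). The direction was positive in all of these settings, while the size was not settled by these samples.

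AT2G46050 had signals of 1.16, 1.04, 0.826 and 1.07 at 4 weeks, against 0.827, 0.906, 0.567 and 0.620 at 1 week. Of the older samples, only sample 3 lay within the range of the younger ones, and in every pair of samples with the same number the older one was brighter. The means were 1.02 ± 0.140 at 4 weeks and 0.730 ± 0.162 at 1 week (SD, n = 4 each). The log2 difference was 0.50 (SE 0.20), and 0.50 on deposited values. Without any single sample it ran from 0.37 to 0.62.

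**Figure D2:**
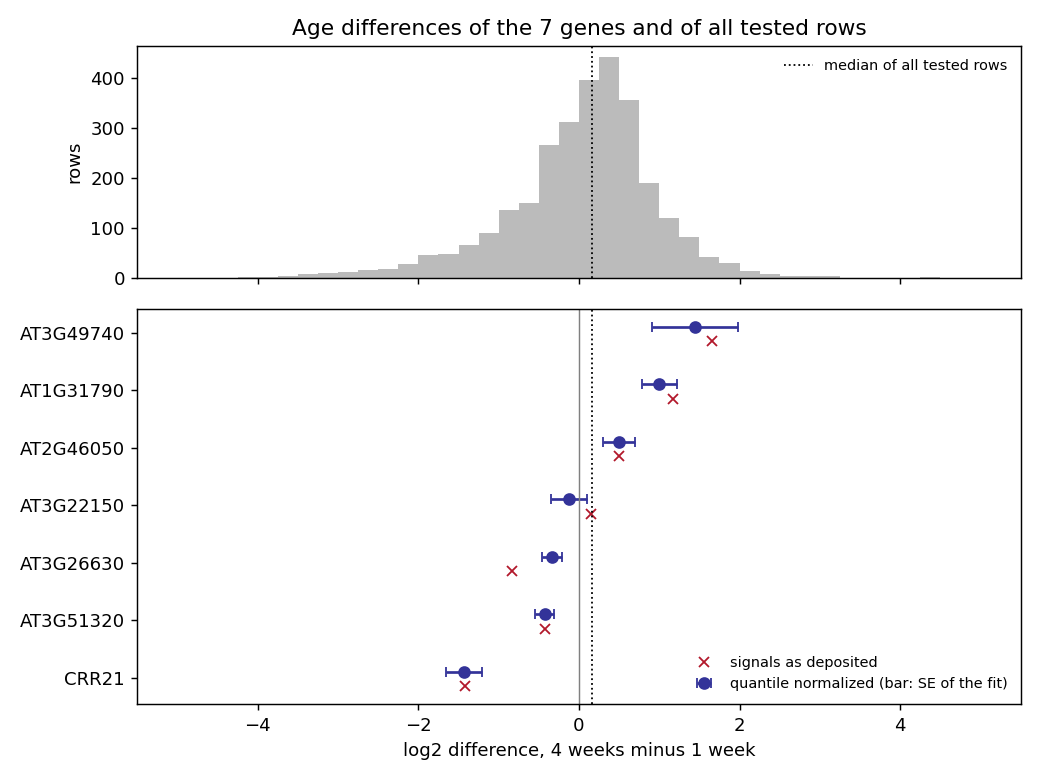
Log2 difference between 4 weeks and 1 week for the 7 genes (lower panel) under a histogram of all 2924 tested rows in bins of 0.25 (upper panel). Circles are quantile-normalized values with the SE of the fit, crosses the deposited signals, and the dotted line is the median of all tested rows, 0.16. The gap between circle and cross is widest in AT3G26630, at −0.34 against −0.84, and AT3G22150 lies on both sides of 0.

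Across the array 58.2% of tested rows had a positive log2 difference, with a median of 0.16 and quartiles of −0.40 and 0.58. Among the 7 genes 3 differences were positive and 4 negative on the normalized scale, with a median of −0.12. The median size of the difference, regardless of sign, was 0.50 in the 7 genes and 0.52 in all tested rows. The median of all rows was 0.21 on deposited values and 0.16 after median centring. Set against the median of each scaling, CRR21, AT3G51320 and AT3G26630 stayed below it and AT1G31790, AT3G49740 and AT2G46050 above it under all 3 scalings. AT3G22150 was below it by 0.28 after quantile normalization and by 0.05 under the other scalings.

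The spread between samples differed from gene to gene. The residual SD of the fit on the log2 scale was 0.13 in AT3G51320 and 0.14 in AT3G26630, and 11.4% and 12.2% of tested rows were less variable than these. It was 0.30 to 0.35 in AT2G46050, AT1G31790, AT3G22150 and CRR21, against a median of 0.27 over all tested rows. It was 0.88 in AT3G49740, above 93.2% of rows. AT1G31790, AT3G49740 and AT3G22150 belong to the dimmest tercile of tested rows.

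Across the array, deviations from the mean of each age were shared between the ages by sample number. They went together within samples 1 and 2 and within samples 3 and 4. Given this, the subtraction of the mean of each age forces them to run opposite across these, as they did. The labels give no reason for the sharing. In CRR21 the shift of samples 3 and 4 against samples 1 and 2 was the same at both ages, 0.57 at 4 weeks and 0.56 at 1 week on the normalized log2 scale. Its age difference was therefore −1.43 in samples 1 and 2 and also −1.43 in samples 3 and 4. The shift was negative at both ages in AT2G46050, at −0.29 at 4 weeks and −0.61 at 1 week, and in AT3G26630, at −0.28 and −0.16. In the remaining 4 genes it differed in sign between the ages. The shift was widest in AT3G49740, with −0.79 at 4 weeks and 1.01 at 1 week. The median size of the shift over all rows measured in all 8 samples was 0.27 at 4 weeks and 0.33 at 1 week.

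For 6 of the 7 genes the age difference had the same sign in samples 1 and 2 as in samples 3 and 4, against 82.0% of the 2814 rows measured in all samples. The exception was AT3G22150, with −0.44 in samples 1 and 2 and 0.20 in samples 3 and 4. In AT1G31790 the values were 0.76 in samples 1 and 2 and 1.24 in samples 3 and 4, in AT2G46050 0.34 and 0.66, and in AT3G26630 −0.28 and −0.40. Nothing is read from the count of 6, since the 7 genes were listed with the age comparison known.

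**Figure D3:**
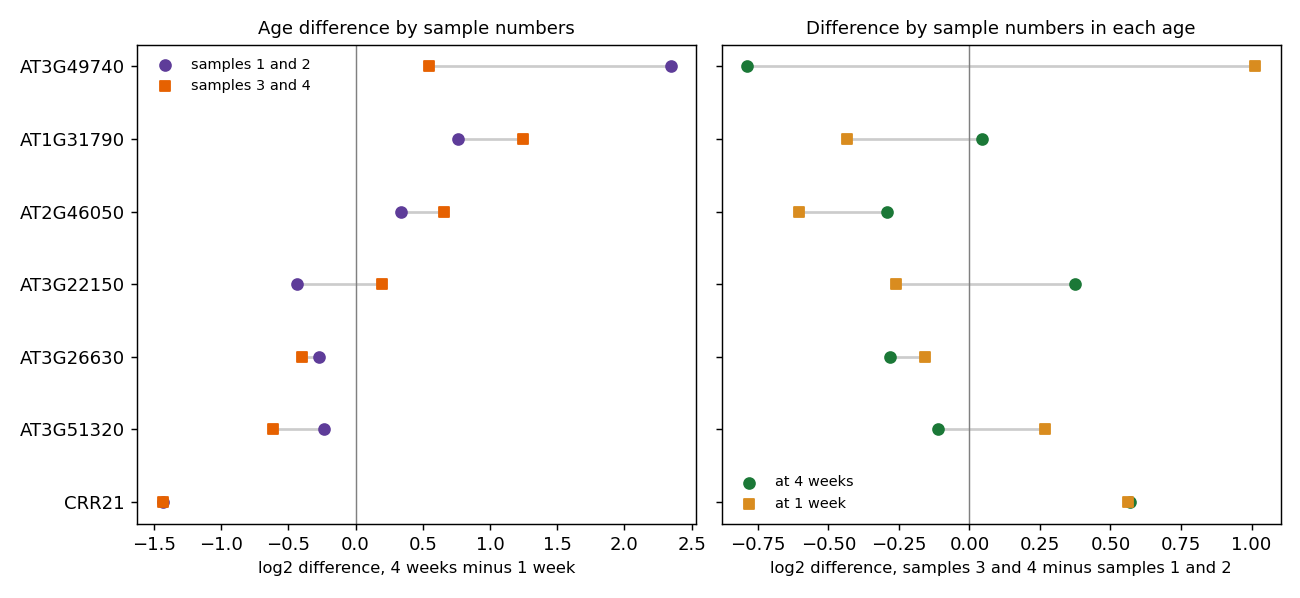
Normalized log2 differences of the 7 genes split by sample number. The left panel gives 4 weeks minus 1 week in samples 1 and 2 and in samples 3 and 4, and the right panel gives samples 3 and 4 minus samples 1 and 2 at 4 weeks and at 1 week. Grey lines join both values of a gene. The values of CRR21 coincide in both panels, and those of AT3G49740 lie farthest apart.

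Among other named rows with a signal above 0 in every sample, the pattern closest to each gene was found by Pearson's r of normalized log2 signal over the 8 samples. These samples share their age and their sample numbers, and the r values describe 8 points only. CRR21 was closest to AT3G52070 (r = 0.99), and 54 of 563 rows had an r above 0.9 with it. AT3G51320 was closest to AT3G04560 (r = 0.98), AT3G26630 to AT2G23890 (r = 0.95) and AT2G46050 to AT3G20150 (r = 0.95). AT1G31790 was closest to AT5G38750 (r = 0.95) and AT3G49740 to AT4G02040 (r = 0.91). An r does not show the size of a change. The age difference was −1.17 in AT3G04560 and −1.63 in AT2G23890, against −0.43 in AT3G51320 and −0.34 in AT3G26630. It was 0.32 in AT3G20150, 0.77 in AT5G38750 and 0.76 in AT4G02040, smaller than in the genes they were closest to. In AT3G52070 it was −1.51, near the −1.43 of CRR21. AT3G22150 had no row above 0.9, and its closest row was AT1G24360 (r = 0.63). None of the 7 genes was the closest row of another, but they make up few of the 563 rows compared. Nothing is read from this.

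Of 97 listed genes of organelle editing and of the complexes served by CRR21 and AT3G22150, 5 had a row of their own, and in 4 of these most signals were at 0. OTP85, a PLS-class factor for editing of ndhD, was listed at 0 in every sample except sample 1 of 4-week-old plants, with 0.0242. AT3G22690 (YS1), a PLS-class factor for editing of plastid rpoB, was listed at 0 in all 8 samples. NdhN, a subunit of the NDH complex, had a signal above 0 in 1 sample of each age, with 0.0132 at 4 weeks and 0.000371 at 1 week. AT3G29185 (BFA1), an assembly factor of the plastid ATP synthase, had 0.00811 in 1 sample of 1-week-old plants and was at 0 in the others. A value of 0 does not show that a transcript was absent, and these 4 genes were left out of the fit, which treats 0 as missing.

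The remaining gene, NdhS, encodes the NDH subunit that binds ferredoxin. It had signals of 3.03, 3.22, 3.38 and 3.40 at 4 weeks, against 3.23, 3.51, 2.80 and 2.72 at 1 week. The ages overlapped, with the highest value in a younger sample. Its means were 3.26 ± 0.172 at 4 weeks and 3.07 ± 0.370 at 1 week (SD, n = 4 each). It did not pass the test (log2 difference 0.22, SE 0.15, limma adjusted p = 0.247), where 45.7% of all rows passed at an adjusted p under 0.05. The lists were chosen with earlier results of these data known, which this p does not take into account. The adjusted p of NdhS from limma lay between 0.0349 and 0.793 over the alternatives tried. The lowest value came from samples 3 and 4 alone, with a log2 difference of 0.47, and in samples 1 and 2 alone the difference was −0.053. On deposited values the NdhS difference was 0.092 (SE 0.12). After median centring, the setting with the highest adjusted p, it was 0.041 (SE 0.12). CRR21 and NdhS, which serve the same complex, had differences of −1.43 and 0.22 after quantile normalization, and the gap between them was not tested.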

How the data were processed

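The deposited table holds a linear array intensity for each row and sample. The scanning, background correction and scaling by the authors are not given in the sources used here. Rows were named through the GEO platform annotation and a reference gene table (TAIR10.1), which matched 690 of 692 single-gene rows. The 7 genes and the lists were chosen with earlier results of these data known. Intensities above 0 were log2-transformed, with 0 treated as missing, and quantile normalized, since array medians differed by 0.13. Rows needed 3 measured samples in each age and not all 8 at the ceiling, which left 2924. They were fitted as 4 weeks minus 1 week with limma 3.58.1 (lmFit, eBayes) in R 4.3.3, with Benjamini-Hochberg adjustment over all rows, a threshold of 0.05 and no block. The fit was tested on simulated data with independent errors, a setting without the shifts shared by sample numbers. Fold changes and SEs come from the limma fit, and means ± SD from deposited values.

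After the mean of each age was subtracted, samples with the same number correlated at 0.425 to 0.527 across rows. By a limit of 0.1 in every pair this counts as pairing, from the data and not from the labels. The values reported come from the unblocked fit, and blocking by number was an alternative only. The SEs and adjusted p of the unblocked fit thus do not use this pairing. Other numbers correlated at 0.180 to 0.397 within samples 1 and 2 or 3 and 4, and at −0.419 to −0.351 across. Given the positive values within, the subtraction of the means forces negative values across, so these are no separate result.

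The named genes were the 7, the listed genes with a row, and the closest row of each of the 7. Other PPR genes were sought by the words pentatricopeptide or PPR in the reference table, which describes few genes in this way (13 in all), and 0 single-gene rows matched. This does not show that the array holds no other PPR genes, and they are not analysed here. Of 13 marker genes of epidermis, flower, seed, senescence and cell division, 0 could be found on single-gene rows, and the organs in the samples were not checked. Sequences were not used here.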

Additional observations from a re-analysis of the deposited data

Results flagged for a closer look

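AT3G22150 had a signal of 0.207 in sample 3 of 4-week-old plants, set apart from the other 3 samples of that age, which lay between 0.113 and 0.119. The gap was 0.944 of the range of the 4 samples, above the critical value of Dixon's test for 4 samples. In 16 groups examined (the 7 genes and NdhS at both ages) this was the 1 such sample, and chance gives it in about 5% of groups. What set this sample apart was not tested.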

How the results depend on the processing

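The age differences of CRR21, AT1G31790, AT3G51320, AT3G26630, AT2G46050 and AT3G49740 had the same sign under every alternative that gave a value. Blocking, averaging and the filtering of rows cannot change these differences, because the ages are balanced and these genes were measured in every sample. The sign in those settings was therefore fixed in advance. AT3G22150 changed sign, with 0.16 on deposited values, 0.10 after median centring and 0.19 in samples 3 and 4 alone, and NdhS with −0.053 in samples 1 and 2 alone. With the dimmest tercile of rows left out, AT1G31790, AT3G49740 and AT3G22150 gave no value. The array-wide count of 1337 called rows was 400 when samples 1 and 2, and samples 3 and 4, of each age were averaged. It was 1075 to 1279 without any 1 sample. With the replicate block it was 1656, and NdhS did not pass (adjusted p = 0.245). The block left the log2 differences as they were. Its SE was 0.12 in CRR21, 0.17 in AT1G31790, 0.096 in AT3G26630 and 0.13 in AT2G46050, smaller than in the unblocked fit. It was 0.13 in AT3G51320, 0.56 in AT3G49740 and 0.24 in AT3G22150, slightly larger than in the unblocked fit. With 0 as missing, NdhS was the 1 listed gene tested, and the count that passed was 0 in the limma fit (0 at unadjusted p under 0.05) and 1 in samples 3 and 4 alone. With the pseudocount all 5 listed genes were tested by limma, and 0 passed (0 at unadjusted p under 0.05). Of all 3437 rows in that setting, 1268 passed. Apart from NdhS, the listed genes had signals of at most 0.0242, below the pseudocount of 0.0777. They could therefore hardly pass, and the result rests on NdhS alone. The search for other PPR genes gave no result, because the reference table describes few of them, so it has no alternatives. The table gives no background beside the signals, so how far the dim rows of AT1G31790, AT3G49740 and AT3G22150 lie above it is unknown.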

Other observations

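A further row of the array is annotated with AT3G26630 together with AT2G42920 and was therefore not used. Its signal was above 0 in 3 of 4 samples at 4 weeks, with a highest value of 0.137, and in 2 of 4 samples at 1 week, with a highest value of 0.0822. The row that names AT3G26630 alone was above 0 in all 8 samples.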
